A study of Homo sapiens with 12 samples.

Results

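The 10 genes described here belong to the circadian clock: PER1, PER2, PER3, CRY1, CRY2, NR1D1, NR1D2, DBP, ARNTL and BHLHE40. They were chosen by name, with earlier results of these data known. All 10 are among the 19647 genes of the table that have an Ensembl transcript, and all 10 are among the 11908 genes that passed the filter on low values, an FPKM (fragments mapped, scaled to transcript length and to library size) of 1 or more in at least 3 libraries. Levels came from RNA-seq of A549 cells, an epithelial line from a human non-small cell lung cancer, in 4 groups of 3 untreated libraries each. NR0B1 (DAX1) is a nuclear receptor with no known ligand that acts mainly as a corepressor. Overexpressing cells (NR0B1 OE) were set against a wild-type overexpression control (OEC), and knockdown cells carrying a short hairpin (shNR0B1) against a wild-type knockdown control (shNC). The labels used here do not say which vector or promoter was used, how many hairpins or clones there were, whether the 3 libraries of a group came from separate cultures, or when the cells were harvested and whether they had been synchronised. The p-values therefore measure the spread between these libraries, which may be technical, and a difference in clock phase and a difference in mean level cannot be told apart.

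The mammalian clock is a transcriptional feedback loop. ARNTL (also called BMAL1) pairs with CLOCK or NPAS2 and binds E-box sequences, which switches on PER and CRY genes, NR1D1 and NR1D2, DBP and BHLHE40. PER and CRY proteins return to the nucleus and inhibit ARNTL with its partner, NR1D1 and NR1D2 (REV-ERB alpha and beta) repress ARNTL itself, DBP activates promoters with a D-box, and BHLHE40 (DEC1) competes for E-boxes. PER1 is also switched on directly by cAMP signalling and by glucocorticoids, and BHLHE40 by hypoxia, so that both can change in cells without a change of rhythm. A549 cells are of lung epithelial origin, and in the lung the clock is known for its part in the airway epithelium's response to glucocorticoids.

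The genes lie on 7 chromosomes of GRCh38 (GENCODE 29): PER1 at chr17:8140472-8156506 and NR1D1 at chr17:40092787-40100725, PER2 at chr2:238244038-238290102, PER3 at chr1:7784320-7845177, CRY1 at chr12:106991364-107093829, CRY2 at chr11:45847118-45883248 and ARNTL at chr11:13276652-13387266, NR1D2 at chr3:23945260-23980618 and BHLHE40 at chr3:4979116-4985323, and DBP at chr19:48630030-48637438. All 10 are protein-coding. Of the 10, 3 share more than 5% of their exon bases with a protein-coding gene on the opposite strand: PER3 with UTS2 (10.7%), DBP with SPHK2 (10.1%) and NR1D1 with THRA (9.5%). Whether counting used strand is not given in the sources used here, and without strand, reads that lie within the shared bases cannot be told apart.

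RefSeq promoters (GRCh38.p14) were found for all 10 genes, ARNTL under the name BMAL1. In the 250 bases before the listed starts, the E-box CACGTG, which reads the same on both strands, occurred at PER1, BHLHE40 and NR1D2, and at NR1D2 it occurred 2 times. It was present in 6.34% of 35116 promoters of the same length. The E-box variant CACGTT, searched on both strands and added after the first results were seen, occurred at PER2, CRY1, CRY2 and NR1D1 and in 4.55% of promoters. The D-box TTANGTAA occurred at NR1D2 and PER3 (1.98% of promoters) and the ROR element TAGGTCA, to which NR1D1 and NR1D2 also bind, at CRY2 (1.61%). The cAMP element TGACGTCA was in 1.65% of promoters and in 0 of the 10 genes. These are matches of letters within a short window, not measured binding sites. Among genes tested, the E-box was in 11.5%, the variant in 6.89%, the D-box in 1.68% and the ROR element in 1.55%. The windows of the 5 genes that changed in an arm and hold a match are given because they show how the loop's motifs are spaced. Capitals mark the E-box or its variant and, at NR1D2, the D-box, which comes first. A match on the other strand reads as the reverse complement, AACGTG at CRY1 and NR1D1.
PER1 chr17:8152405-8152654 (minus strand): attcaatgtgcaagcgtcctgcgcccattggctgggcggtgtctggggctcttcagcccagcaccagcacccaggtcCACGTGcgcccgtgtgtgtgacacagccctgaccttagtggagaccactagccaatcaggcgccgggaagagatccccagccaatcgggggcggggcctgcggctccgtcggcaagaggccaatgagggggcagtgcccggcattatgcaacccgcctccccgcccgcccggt
PER2 chr2:238288611-238288860 (minus strand): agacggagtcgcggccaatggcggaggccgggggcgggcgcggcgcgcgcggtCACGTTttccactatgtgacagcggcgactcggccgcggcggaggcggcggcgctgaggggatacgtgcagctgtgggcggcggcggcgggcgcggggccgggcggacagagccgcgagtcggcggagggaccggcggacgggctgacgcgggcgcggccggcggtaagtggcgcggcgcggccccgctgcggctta
CRY1 chr12:107093550-107093799 (minus strand): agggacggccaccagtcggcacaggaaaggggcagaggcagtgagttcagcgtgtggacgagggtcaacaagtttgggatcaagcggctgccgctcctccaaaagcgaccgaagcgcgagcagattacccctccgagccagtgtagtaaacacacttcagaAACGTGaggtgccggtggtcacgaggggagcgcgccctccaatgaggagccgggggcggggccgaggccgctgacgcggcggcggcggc
NR1D1 chr17:40100590-40100839 (minus strand): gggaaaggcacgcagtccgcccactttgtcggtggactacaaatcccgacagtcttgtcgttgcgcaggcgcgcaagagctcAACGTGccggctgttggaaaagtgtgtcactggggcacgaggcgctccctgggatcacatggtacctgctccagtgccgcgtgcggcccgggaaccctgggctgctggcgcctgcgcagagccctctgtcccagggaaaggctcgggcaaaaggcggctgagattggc
NR1D2 chr3:23945871-23946120 (plus strand): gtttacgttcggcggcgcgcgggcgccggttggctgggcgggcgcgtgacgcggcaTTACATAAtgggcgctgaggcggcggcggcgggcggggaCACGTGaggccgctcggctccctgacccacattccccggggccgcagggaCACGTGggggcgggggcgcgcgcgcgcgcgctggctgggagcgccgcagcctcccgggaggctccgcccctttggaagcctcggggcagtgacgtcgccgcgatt
In these windows the PER1 E-box ended 168 bases before the start, the PER2 variant 192, the CRY1 variant 84 and the NR1D1 variant 163. The E-boxes of NR1D2 ended 150 and 100 bases before its start, with the D-box upstream at 187. ARNTL, DBP, the first of the starts listed for NR1D2 and for CRY2, and the second of those for PER3 held none of the searched motifs in this window.

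Libraries held between 15049011 and 22797076 expected counts. Epithelial keratins were abundant, KRT8 at 590 to 1410 FPKM and KRT18 at 547 to 1510, and CDH1, the epithelial cadherin, was at 23.7 to 71.8. EPCAM was low (0.23 to 2.6), and NKX2-1 and SFTPB, markers of the lung lineage, were at or near 0, at most 0.12. Summed fibroblast markers reached at most 0.95 FPKM and endothelial markers 0.35, CD3E was at 0 in all 12 libraries and PTPRC at most 0.01, and of the 4 leukocyte markers only CD68 was above 1 (15.1 to 59.6). NR0B1 itself stood at 98.9, 81.8 and 84.2 CPM (counts scaled to library size, without regard to length) in the overexpressing libraries against 17.9, 60.1 and 55.2 in their control, and at 2.99, 3.31 and 5.84 in the knockdown against 16.3, 21.1 and 13.3. The knockdown passed the test (4.18-fold lower, adjusted p = 0.00593, edgeR) and the overexpression did not (1.99-fold higher, 0.0912), although the groups did not overlap. The control groups also differed from each other in NR0B1 (2.63-fold higher in OEC, 0.0189), and that call ended without OEC replicate 2 or 3 or shNC replicate 1 or 3 (up to 0.0782). Of the 12 libraries, 2 stood apart from their group: OEC replicate 1, whose log2 CPM correlated at 0.937 with the other libraries of its group, which correlated at 0.9763 with each other, and shNR0B1 replicate 2 (0.9118 against 0.9589). Correlations are over genes, which are not independent. Member calls that change without these libraries are given below. With both left out, more of all genes passed in each of the 4 comparisons.

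Ordered by mean FPKM over the 12 libraries, BHLHE40 was by far the most abundant (70.4), followed by NR1D2 (25.7), NR1D1 (15.1), PER1 (10.6), ARNTL (7.48), CRY1 (6.53), CRY2 (6.09), PER2 (5.95), DBP (5.46) and PER3 (2.33). These means, and the ranges that follow, are sums over Ensembl transcripts only. Among the genes tested, BHLHE40 was at percentile 93.2 and PER3 at percentile 13.3. NR1D2 was above NR1D1 in all 12 libraries, and its lowest library (13.0 FPKM) was above the highest of CRY2 (9.43), PER2 (10.8) and PER3 (3.36). From PER1 to DBP, the range over libraries of each gene overlapped that of its neighbours in this order. PER3 was below the lowest library of CRY2 (3.58) in every library, and overlapped DBP. The lowest BHLHE40 library, at 47.8 FPKM, was above the highest NR1D2 library at 39.7. The libraries themselves differed much more for some genes than for others: in CPM, the highest library exceeded the lowest 34.2-fold for DBP, 13.5-fold for PER1 and 8.91-fold for NR1D1.

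**Figure D1:**
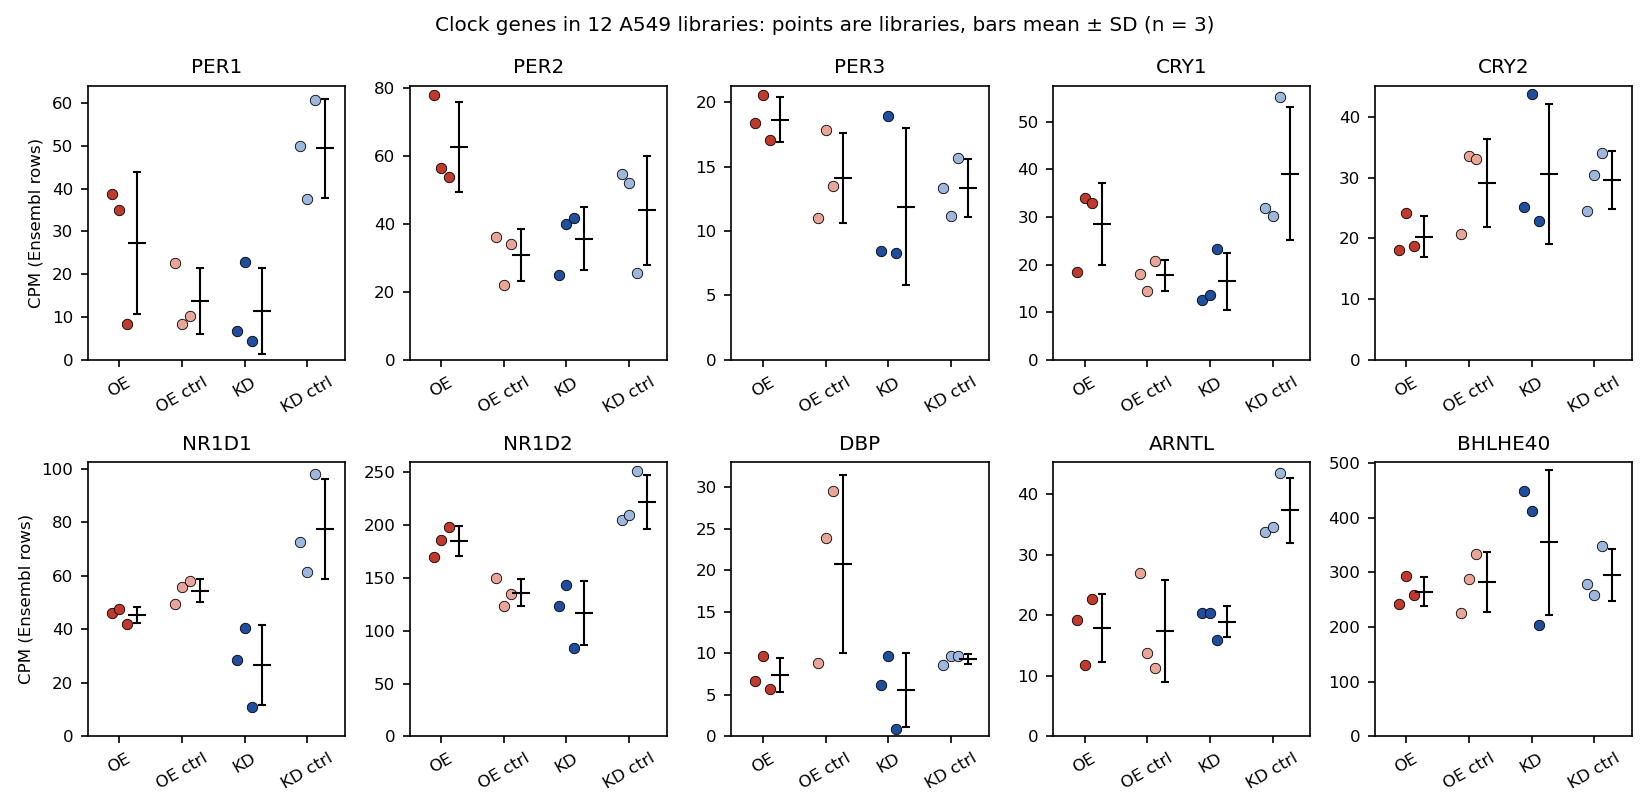
CPM (vertical axis, Ensembl rows) of the 10 clock genes in each of the 12 libraries, by group on the horizontal axis (OE, overexpression, KD, knockdown, ctrl, the control of each); points are libraries and bars the mean ± SD of 3. The knockdown controls have the highest mean for PER1, CRY1, NR1D1, NR1D2 and ARNTL, and DBP is high in 2 libraries of the overexpression control only.

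The rows summed to a gene matter for 5 of the 10 genes. Beside Ensembl transcripts, the table holds assembled transcripts that the authors' pipeline added, with a gene symbol from sequence similarity. Over all libraries such rows held 71.8% of the counts that carry the symbol PER1, 50.6% for CRY1, 40.3% for PER3, 37.6% for PER2 and 18.1% for ARNTL, and 0 for CRY2, NR1D1, NR1D2, DBP and BHLHE40. For PER1 the share ranged from 37.6% (overexpression replicate 1) to 92.2% (OEC replicate 2), and the 4707-base transcript ENST00000317276 was listed at 0 in 4 of the 12 libraries in which the assembled row was above 0. For PER2 the assembled row was listed at 0 in overexpression replicate 1 and knockdown replicate 3. The split between the rows thus varied by library, so values with assembled rows added are also given where they bear on a call, beside those from Ensembl rows, which are the main values. The order by mean FPKM also changed when assembled rows were added. PER1, at 21.7, was then above NR1D1 at 15.1. CRY1, at 14.1, and PER2, at 9.16, were above ARNTL at 9.0. The highest PER3 library reached 4.46 FPKM, above the lowest of CRY2 (3.58). On Ensembl rows, 6.49 of the 10.6 FPKM of PER1 came from the 576-base transcript ENST00000584202, with 76.0 of 420.4 mean counts. The assigned symbol of an assembled row was not tested against its sequence.

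**Figure D2:**
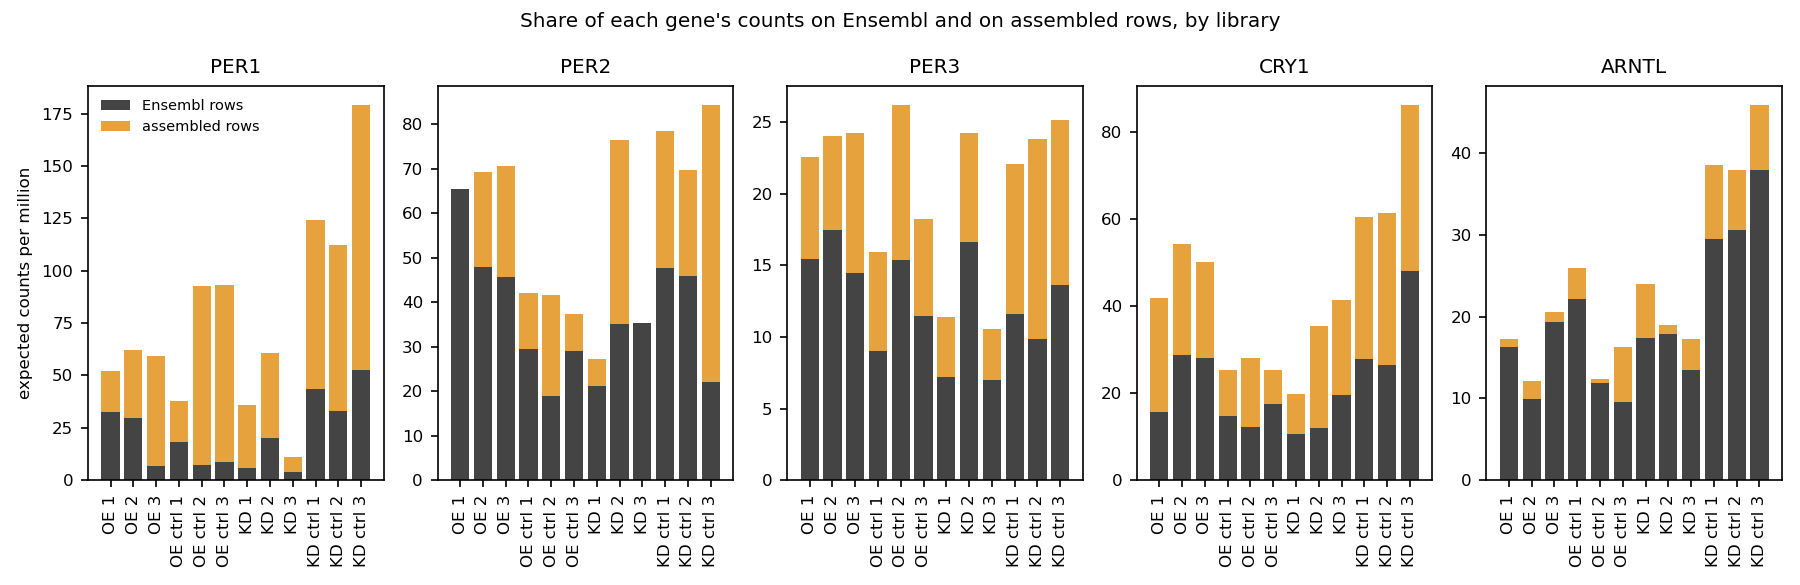
Expected counts as CPM of all counts (vertical axis) on Ensembl rows (dark) and assembled rows (orange) for the 5 clock genes that have both, with 1 bar per library. The split varies between libraries of the same group, most for PER1 and PER2, while the full height of the bars of PER2 is similar within OE and within OEC.

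In the knockdown arm, 5 of the 10 clock genes fell and none rose: NR1D1, NR1D2, PER1, CRY1 and ARNTL. Of all genes tested, 11.5% fell in this arm and 23.9% passed in either direction. The median log2 fold change of the 10 genes was -0.84, beside 0.03 over all genes. Between the groups, 5 genes did not overlap, beside 40.9% of all genes. Clock genes are known to be regulated together, so they are not independent of each other. The count was also 5 lower with the assembled rows added, when 28.9% of all genes passed, and 6 lower without the libraries OEC 1 and shNR0B1 2, when 37.7% did.

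NR1D2 encodes REV-ERB beta, a heme-sensing repressor of ARNTL. It stood at 124, 143.5 and 84.0 CPM in the knockdown libraries and at 205, 209 and 251 in the shNC control. Every knockdown library was below every control library. The gene was 1.89-fold lower (log2 fold change -0.92 ± 0.17 SE, adjusted p = 0.00416, edgeR quasi-likelihood test with Benjamini-Hochberg adjustment, used for all adjusted p-values here), and passed in all 36 other settings tried, with and without assembled rows.

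NR1D1 encodes REV-ERB alpha, the partner repressor. Its levels were 28.7, 40.6 and 11.01 CPM in the knockdown and 72.5, 61.5 and 98.1 in the control. The groups did not overlap, and knockdown replicate 3 was the lowest of all 12 libraries. The gene was 2.89-fold lower (log2 fold change -1.53 ± 0.35, adjusted p = 0.0109). It passed without each library in turn and missed the threshold when only the 6 libraries of the arm entered the fit (0.0586).

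PER1, the quickest of the PER repressors to respond to outside signals, was at 6.70, 22.9 and 4.49 CPM in the knockdown and at 50.1, 37.5 and 60.7 in the control (log2 fold change -2.12 ± 0.67, adjusted p = 0.0414). With assembled rows the values were 36.5, 59.8 and 11.4 against 124, 110.1 and 180 (log2 fold change -1.94 ± 0.51, 0.0173). The groups did not overlap on either scale, and knockdown replicate 2 was the highest of its group on both. With assembled rows the call ended only without shNC replicate 3 (0.0608). On Ensembl rows it ended without any 1 of OE replicate 2, OEC replicate 3, knockdown replicates 1 and 3 or each shNC replicate (adjusted p up to 0.123), and without both libraries that stood apart it was larger (log2 fold change -3.13, 0.00382). Of 10 alternatives other than leaving out 1 library, PER1 passed in 8.

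CRY1, a strong repressor of the loop, was at 12.5, 13.6 and 23.3 CPM in the knockdown and at 31.9, 30.1 and 55.3 in the control (log2 fold change -1.25 ± 0.32, adjusted p = 0.0181). With assembled rows the values were 20.3, 34.9 and 43.0 against 60.5, 60.4 and 86.5 (-1.08 ± 0.23, 0.00596). No knockdown library reached a control library on either scale. On Ensembl rows the call ended without knockdown replicate 1 or shNC replicate 3 (up to 0.0872), whereas with assembled rows it held without each library in turn (up to 0.0327).

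ARNTL, the activator, was at 20.5, 20.4 and 16.0 CPM in the knockdown and at 33.9, 34.6 and 43.5 in the control (log2 fold change -0.98 ± 0.32, adjusted p = 0.045). The groups did not overlap, and the knockdown values were within the range of the overexpression arm's libraries. On Ensembl rows this call ended without any 1 of OE replicate 1, OEC replicate 2 and all 6 libraries of the arm (up to 0.137). Of 10 alternatives other than leaving out 1 library, ARNTL passed in 9. With assembled rows the values were 24.4, 18.7 and 17.9 against 38.5, 37.3 and 46.0, and the difference was -0.99 ± 0.27 (0.0169), which ended only without shNC replicate 3 (0.0684).

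The other 5 genes did not pass in the knockdown arm. PER2 had 24.9, 40.0 and 41.9 CPM against 54.6, 51.9 and 25.5 (log2 fold change -0.31, adjusted p = 0.501), or 27.7, 75.3 and 36.7 against 78.4, 68.5 and 84.6 with assembled rows (-0.73, 0.0682). Here knockdown replicate 2 lay among the controls, and without both libraries that stood apart PER2 with assembled rows was lower and passed (-1.26, 2.71e-05), as did PER3 on either scale (-0.67, 0.0202, and -1.06, 0.000231 with assembled rows). With all libraries PER3 was at 8.45, 19.0 and 8.30 CPM against 13.3, 11.2 and 15.7 (-0.17, 0.725), again with replicate 2 highest, or 11.6, 23.9 and 10.9 against 22.0, 23.4 and 25.2 with assembled rows (-0.61, 0.11). DBP, a transcription factor of the clock's output, was at 6.19, 9.63 and 0.86 CPM against 8.63, 9.67 and 9.71 (-0.75 ± 0.63, 0.416). BHLHE40 was at 448, 412 and 204 against 279, 258 and 348 (0.27 ± 0.26, 0.477), and CRY2, the second cryptochrome, at 25.1, 43.8 and 22.9 against 24.5, 30.4 and 34.0 (0.04 ± 0.27, 0.92). For CRY2 the approximate 95% interval of the log2 difference ran from -0.48 to 0.56 and for BHLHE40 from -0.23 to 0.77. A change of the size seen in NR1D1 lay outside both intervals. BHLHE40 was below every control in replicate 3 and above them in the other 2 knockdown libraries. Without replicate 3 it passed as higher (0.0462).

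**Figure D3:**
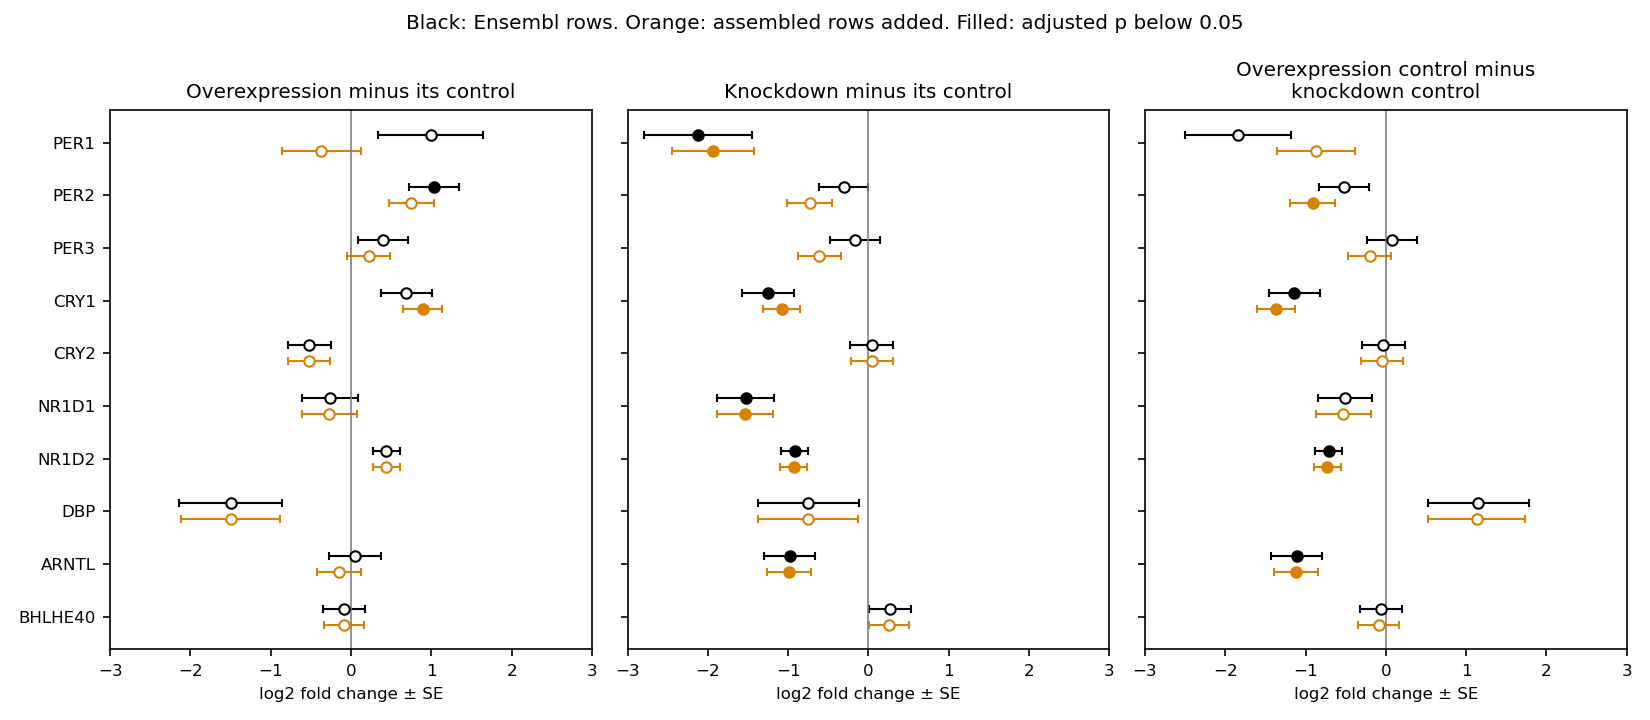
Log2 fold changes ± SE (horizontal axis) of the 10 clock genes in the overexpression arm, the knockdown arm and between the controls. Black points are sums of Ensembl rows, orange points have assembled rows added and filled points passed at an adjusted p below 0.05. In the knockdown arm 5 black points are filled, all below 0, and in the overexpression arm 1 is filled, PER2, above 0.

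In the overexpression arm, 1 of the 10 genes passed. PER2, a PER repressor, rose, beside 9.87% of all genes tested that rose and 18.1% that passed in either direction. The groups did not overlap in 3 of the 10 genes, PER2, NR1D2 and NR1D1, beside 43.5% of all genes. The median log2 fold change of the 10 genes was 0.22, and -0.03 over all genes. With assembled rows 1 gene passed as well, CRY1 instead of PER2, when 22.3% of all genes passed. Without OEC replicate 1 and knockdown replicate 2, 4 passed on Ensembl rows, when 37.5% of all genes did: PER2 and NR1D2 as higher, CRY2 and DBP as lower.

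PER2 was at 77.8, 56.3 and 53.8 CPM in the overexpressing libraries and at 36.1, 22.0 and 34.2 in the OEC control (log2 fold change 1.03 ± 0.31, adjusted p = 0.0414). With assembled rows it was at 66.9, 69.8 and 71.1 against 43.8, 42.0 and 37.7 (0.75 ± 0.28, 0.0709). The groups were apart on both scales, and closest within each group when assembled rows were added. On Ensembl rows the call ended without any 1 of the OE replicates, OEC replicates 2 and 3 or shNC replicate 2 (up to 0.141).

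CRY1 was at 18.5, 33.9 and 33.0 CPM against 18.1, 14.4 and 20.7, with an overlap at overexpression replicate 1 (log2 fold change 0.69 ± 0.32, adjusted p = 0.157). With assembled rows it was at 42.9, 54.8 and 50.6 against 26.4, 28.1 and 25.7, which do not overlap (0.89 ± 0.24, 0.0219). The latter call ended without OE replicate 2 or 3 or OEC replicate 2 or 3 (up to 0.0738). NR1D2 was at 170.0, 186 and 198 against 149.6, 124 and 135, every overexpressing library above every control, and did not pass (0.44 ± 0.17, 0.097). It passed without knockdown replicate 2 (0.0393) or 3 (0.0232), with the 6 libraries of the arm only (0.0242) and without both libraries that stood apart (0.52, 0.0295).

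The direction of PER1 in this arm depended on the rows. On Ensembl rows it was at 38.8, 34.9 and 8.30 CPM in the overexpressing libraries and at 22.5, 8.46 and 10.4 in the control (log2 fold change 0.99 ± 0.65, adjusted p = 0.309). With assembled rows it was at 53.4, 62.8 and 59.9 against 39.2, 93.4 and 94.3 (-0.37 ± 0.49, 0.624). The 3 overexpressing libraries were close together in the second sum and the control was not, with OEC replicate 1, which stood apart in all genes, lowest. No call was made on either scale in any setting tried.

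The remaining genes did not pass with all libraries. NR1D1 was at 46.0, 47.8 and 42.1 CPM against 49.6, 55.8 and 57.9, all below the control (-0.26 ± 0.35, 0.623). DBP was at 6.67, 9.62 and 5.71 against 8.78, 23.9 and 29.5 (-1.5 ± 0.64, 0.121), and CRY2 at 18.0, 24.1 and 18.7 against 20.7, 33.6 and 33.1 (-0.52 ± 0.27, 0.194). In both genes OEC replicate 1 was the control closest to the overexpressing libraries, and without both libraries that stood apart DBP (-1.86, 0.0238; also without knockdown replicate 3 alone, 0.0226) and CRY2 (-0.72, 0.00874) passed as lower. ARNTL was at 19.3, 11.8 and 22.8 against 27.0, 13.8 and 11.3 (0.05 ± 0.32, 0.934), and its direction too depended on the rows (-0.15, 0.719 with assembled rows). BHLHE40 was at 242, 293 and 259 against 225, 287 and 334 (-0.09 ± 0.26, 0.835), and PER3 at 18.4, 20.5 and 17.1 against 11, 17.9 and 13.5 (0.40, 0.384). The intervals ran from -0.58 to 0.67 for ARNTL and from -0.59 to 0.41 for BHLHE40.

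The responses of the arms were then compared directly, as the overexpression response minus the knockdown response. PER1, PER2, CRY1 and NR1D2 differed, with the overexpression response the higher in each, beside 13.1% of all genes tested with a difference in that direction and 25.6% in either. With assembled rows 3 differed (30.7% of all genes), and without both libraries that stood apart 7 (38.5%). The difference in log2 fold change was 3.11 ± 0.93 for PER1 (adjusted p = 0.0323), 1.93 ± 0.46 for CRY1 (0.011), 1.36 ± 0.25 for NR1D2 (0.00306) and 1.33 ± 0.44 for PER2 (0.0441). Those of CRY1 and NR1D2 passed in all 35 other settings tried. That of PER1 missed the threshold with assembled rows (1.58 ± 0.7, 0.111), although it passed on those rows without both libraries that stood apart (1.84, 0.0369). On Ensembl rows it missed it without any 1 of OE replicates 1 and 2, OEC replicates 2 and 3, knockdown replicate 1 and shNC replicates 1 and 3. That of PER2 was 1.48 ± 0.39 with assembled rows (0.015) and held there without each library in turn, and on Ensembl rows it was lost without any 1 of the OE replicates, OEC replicates 2 and 3, knockdown replicate 1 and shNC replicates 1 and 2 (up to 0.101). NR1D1 (1.27, 0.0796) and ARNTL (1.02, 0.114) did not pass in the main fit and did without both that stood apart (1.63, 0.0237, and 1.55, 0.00903), as did PER3 (0.57, 0.356, and 0.92, 0.021 without both). Of 9 alternatives other than leaving out 1 library, PER1 passed in 7, PER2 in 5 and NR1D1 in 3. ARNTL and PER3 each passed in 1, the fit without both. In the main fit, the knockdown calls of NR1D1 and ARNTL are thus not shown to be particular to that arm.

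The controls of the arms differed in 3 clock genes, all lower in OEC than in shNC, beside 16.1% of all genes tested that were lower and 33.4% that differed. The median over the 10 genes was -0.52, beside 0.01 over all genes. The controls did not overlap in 5 of the 10, beside 54.0% of all genes. With assembled rows 4 genes passed, all lower (38.5% of all genes), and without both libraries that stood apart 5 (47.5%), of which DBP was higher (1.51, 0.0403). NR1D2 was at 149.6, 124 and 135 CPM in OEC against 205, 209 and 251 in shNC (log2 difference -0.71 ± 0.17, adjusted p = 0.0107), CRY1 at 18.1, 14.4 and 20.7 against 31.9, 30.1 and 55.3 (-1.14 ± 0.32, 0.0197) and ARNTL at 27.0, 13.8 and 11.3 against 33.9, 34.6 and 43.5 (-1.11 ± 0.32, 0.0213). In each the groups did not overlap. That of NR1D2 passed in all 36 other settings, that of CRY1 ended without OEC replicate 2 or shNC replicate 3 (up to 0.0925) and that of ARNTL without OEC replicates 2 or 3 or shNC replicate 3 (up to 0.0795). With assembled rows CRY1 (-1.37, 0.00136) and ARNTL (-1.12, 0.00735) passed, and did so without each library in turn. PER1, at 13.8 ± 7.63 in OEC and 49.4 ± 11.6 in shNC (SD, n = 3), did not pass in the main fit (-1.84 ± 0.66, 0.052). It passed without both libraries that stood apart (-2.39, 0.00809). Of 10 alternatives other than leaving out 1 library, PER1 passed in 6, this one included. With 1 library left out on Ensembl rows it passed in 4 of 12 fits. With assembled rows its difference was -0.87 ± 0.49 (0.188), and -0.56 without both libraries (0.28). With assembled rows PER2 was lower as well, at 41.2 ± 3.12 against 77.2 ± 8.12 (-0.91 ± 0.28, 0.0239), a call that ended without OEC replicate 2 or 3 or shNC replicate 1 or 3 (up to 0.0775). Both comparisons with shNC share its 3 libraries. For NR1D2 and CRY1 the values side by side were -0.92 and -1.25 in the knockdown arm and -0.71 and -1.14 between the controls, and for ARNTL -0.98 and -1.11. In mean CPM, ARNTL stood at 17.9 in OE, 17.4 in OEC, 19.0 in the knockdown and 37.3 in shNC, and no library of another group reached the lowest of shNC. Which of the controls is closer to unmodified A549 cells was not tested.

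Ratios between partners of the loop, taken within a library as differences of log2 CPM, do not depend on the library's scale. NR1D1 minus NR1D2, neither of which has assembled rows, was -1.89, -1.96 and -2.24 in the overexpressing libraries and -1.59, -1.15 and -1.22 in OEC. It was -2.11, -1.82 and -2.93 in the knockdown and -1.5, -1.77 and -1.36 in shNC. NR1D1 was thus lower relative to NR1D2 in every modified library than in any library of its own control, by -0.71 in the overexpression arm and -0.75 in the knockdown arm. The exact two-sided permutation p was 0.1 in each arm, the smallest that 3 against 3 can give. Adjusted over 5 ratios in 2 arms it was 0.25 on Ensembl rows and 0.2 with assembled rows, so no ratio could pass in this design.

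CRY1 minus CRY2, with assembled rows, was 1.47, 1.41 and 1.66 in OE against 0.58, -0.05 and -0.14 in OEC, and -0.10, -0.11 and 1.10 in the knockdown against 1.5, 1.19 and 1.54 in shNC. It was higher in the overexpression arm (difference 1.38) and lower in the knockdown arm (-1.12), without overlap in either (exact permutation p = 0.1 in each, 0.2 adjusted). On Ensembl rows the knockdown groups overlapped (-1.24, exact permutation p = 0.2). PER1 minus PER2 was lower in the knockdown than in shNC on both sums (-2.19, and -1.35 with assembled rows) and overlapped in the overexpression arm. ARNTL minus NR1D1 and ARNTL minus DBP overlapped in both arms.

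**Figure D4:**
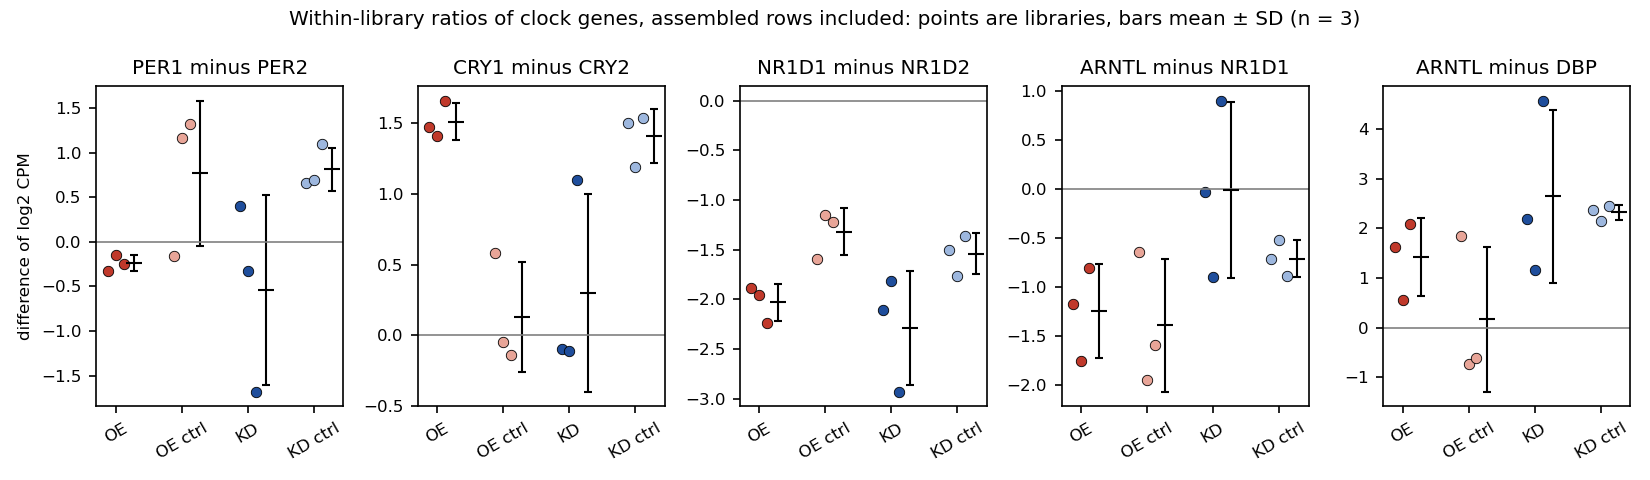
Differences of log2 CPM between pairs of clock genes (vertical axis, assembled rows included), 1 point per library, with the mean ± SD of 3, by group on the horizontal axis. For NR1D1 minus NR1D2 both modified groups lie below their own control, and for CRY1 minus CRY2 the 3 overexpressing libraries lie at 1.41 to 1.66, above OEC.

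PER1 had the widest range of group means of log2(FPKM + 1), 2.14, followed by DBP (1.63) and NR1D1 (1.57). The lowest ranges were those of PER3 (0.46) and BHLHE40 (0.36). Over the 12 libraries, the 5 tested genes most like PER1 by Pearson's r were ZNF609 (0.948), NR1D1 (0.943), FBRS (0.941), ZBTB10 (0.937) and USP8 (0.935). Each was lowest on average in the knockdown and highest in shNC, for example USP8, a deubiquitinase, at 34.1 and 55.8 FPKM. Among the other clock genes r with PER1 was 0.89 for NR1D2, 0.59 for ARNTL and 0.55 for CRY1, and 0.21 for PER2, 0.14 for BHLHE40 and 0.09 for CRY2. The points share their group and the scaling of their library, so r is a description of these libraries, and PER1 is here its sum over Ensembl rows.

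Of 21 other clock components and modifiers, 18 were tested, and RORB and CIART were below the filter (highest library 0.07 and 1.07 FPKM). In the overexpression arm 2 rose and none fell, and in the knockdown arm 4 fell and none rose, with medians of 0.30 and -0.19 beside -0.03 and 0.03 over all genes. Of all genes, 9.87% rose in the overexpression arm and 11.5% fell in the knockdown arm. With 1 library left out, 2 to 4 of the list rose and 0 to 1 fell in the overexpression arm. In the knockdown arm 0 to 2 then rose and 2 to 7 fell. Without both libraries that stood apart, 4 rose and 1 fell in the overexpression arm, and 2 rose and 7 fell in the knockdown arm. Of all genes, 37.5% and 37.7% then passed in these arms, in either direction. CLOCK and NPAS2, the partners of ARNTL, did not pass in either arm.

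NOCT, a clock-regulated phosphatase of NADP(H) also called nocturnin, was at 46.0 ± 3.24 CPM in OE against 19.9 ± 6.03 in OEC, and at 22.6 ± 3.8 in the knockdown against 53.9 ± 9.4 in shNC (SD, n = 3). It rose in the overexpression arm (log2 fold change 1.21 ± 0.22, adjusted p = 0.00564) and fell in the knockdown arm (-1.26 ± 0.22, 0.00253), and was also lower in OEC than in shNC (-1.44, 0.00102). SIRT1, a deacetylase that acts on ARNTL and PER2, was at 121 ± 9.27 against 76.0 ± 6.66 and at 63.1 ± 12.2 against 99.7 ± 3.1. It rose by 0.67 ± 0.13 (0.00831) and fell by 0.66 ± 0.13 (0.00554). These 4 arm calls held without each library in turn. In the knockdown arm HLF, a PAR-bZIP factor related to DBP, fell from 13.9 ± 3.29 to 3.67 ± 2.83 CPM (-1.93 ± 0.49, 0.0171), and USP2, a clock-controlled ubiquitin protease, from 5.51 ± 1.91 to 1.04 ± 0.26 (-2.39 ± 0.57, 0.0123). The call of HLF ended without knockdown replicate 1 or shNC replicate 3 (up to 0.0632), and that of USP2 without shNC replicate 3 (0.0527).

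**Figure D5:**
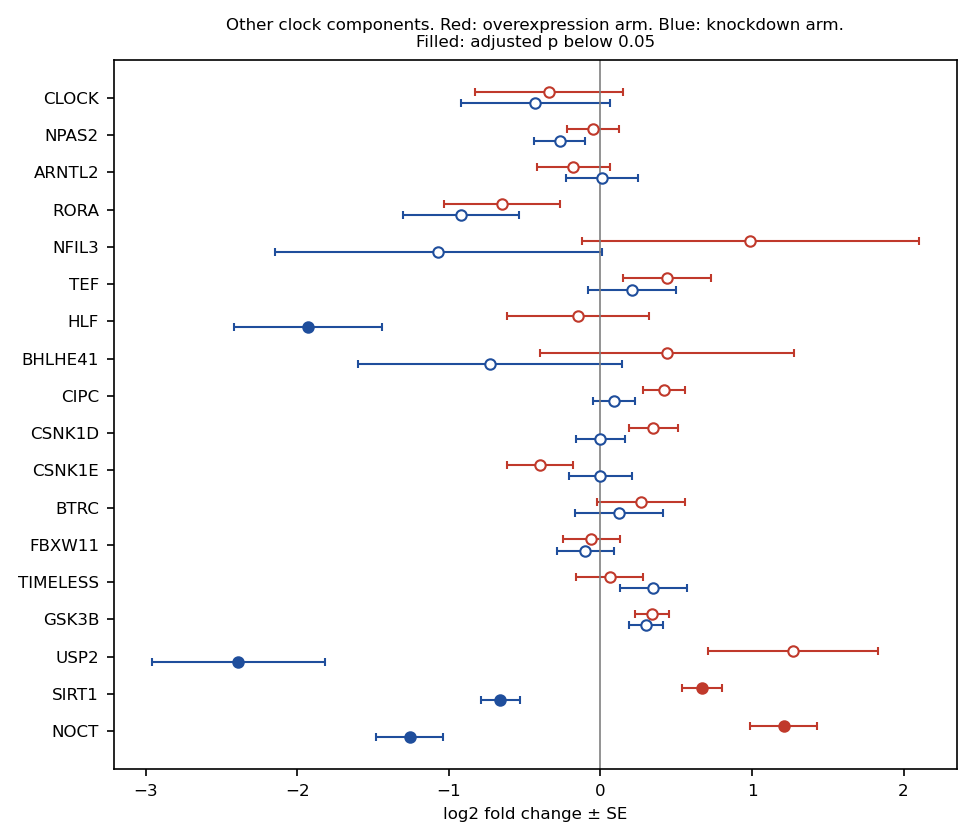
Log2 fold changes ± SE (horizontal axis) of the 18 tested genes of the list of other clock components in the overexpression arm (red) and the knockdown arm (blue). Filled points passed at an adjusted p below 0.05: SIRT1 and NOCT above 0 in the overexpression arm, and HLF, USP2, SIRT1 and NOCT below 0 in the knockdown arm.

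Because PER1 also answers to other signals, genes known to be induced with it were counted. Of 13 cAMP and early response genes, 5 rose and none fell in the overexpression arm, and 4 rose and 4 fell in the knockdown arm. Of all genes, 18.1% passed in the overexpression arm and 23.9% in the knockdown arm, in either direction, and these shares are the background for the lists that follow too. With 1 library left out, 2 to 6 rose and 0 to 1 fell in the overexpression arm. In the knockdown arm 0 to 5 then rose and 3 to 7 fell. In the overexpression arm NR4A3, FOSB and NR4A1 rose (log2 fold changes 5.11, 4.21 and 1.87), while PER1 did not pass. The call of NR4A1 ended without OE replicate 3 or OEC replicate 2 or 3 (up to 0.0607). In the knockdown arm ATF3 (-2.84 ± 0.5, adjusted p = 0.00281), NR4A3 (-1.72 ± 0.34, 0.00481) and DUSP1 (-1.55 ± 0.2, 0.000604), a phosphatase of MAP kinases, fell as PER1 did, and FOSB rose (2.61 ± 0.7, 0.0212). Without knockdown replicate 1, shNC replicate 1 or shNC replicate 2 the call of FOSB ended (up to 0.0767). Without knockdown replicate 2, which was the highest of its group for PER1, and OEC replicate 1, 3 rose and 7 fell in the knockdown arm. In that setting 37.7% of all genes passed in this arm, in either direction.

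Of 12 tested glucocorticoid-induced genes other than PER1, 1 rose in the overexpression arm (SGK1, 2.23 ± 0.28, adjusted p = 0.00125), and 2 rose and 4 fell in the knockdown arm. With 1 library left out, 1 to 3 rose and 0 to 1 fell in the overexpression arm. In the knockdown arm 1 to 2 then rose and 4 to 5 fell. GADD45A, DUSP1 and TSC22D3, also called GILZ, fell (-2.17, -1.55 and -1.45), and SGK1 rose in this arm too (1.02, 0.0198, not without any 1 of the shNC replicates), as did MT2A (1.49, 0.00542). DUSP1 is in both lists. Of 12 hypoxia targets that often move with BHLHE40, 2 rose and 2 fell in each arm, with a median of 0.0 and 0.03. Leaving out 1 library, 0 to 3 fell in the overexpression arm, and 1 to 2 rose and 1 to 3 fell in the knockdown arm. ADM, which encodes adrenomedullin, rose and fell most in the respective arms (2.09 ± 0.23, 0.00062, and -1.95 ± 0.22, 0.000382), while BHLHE40 passed in neither. Of 14 targets of clock output, 2 rose and 2 fell in the overexpression arm and 3 fell in the knockdown arm. Leaving out 1 library, 1 to 2 rose and 0 to 3 fell in the former. In the latter 0 to 1 then rose and 1 to 4 fell. MYC, a growth regulator named among clock targets, rose in the overexpression arm (1.97 ± 0.25, 0.00118) and fell in the knockdown arm (-1.40 ± 0.24, 0.00251). The other two that fell in the knockdown arm were HLF and USP2. These lists were drawn up with earlier results of these data known. A part of cAMP, glucocorticoid or hypoxia signalling in the levels of PER1 and BHLHE40 was not tested.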

How the data were processed

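RNA-seq of 12 A549 libraries was used in the form the authors deposited: expected counts and FPKM values per transcript, per the file headers. The tools are those that the submitters' processing notes name: HISAT2 2.0.5 and Bowtie2 2.2.8, StringTie 1.3.1, RSEM, and fastp. Those notes name mouse builds while the transcripts are human, so coordinates were taken from GENCODE 29. The counting's use of strand is not given in the sources used here.

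Of 96247 rows, 82270 carry Ensembl transcripts and 13977 are assembled transcripts, with 13.3% to 15.4% of the counts. Ensembl rows were summed per gene and expected counts rounded, and a second sum added the assembled rows. The 11908 genes that reached FPKM 1 in 3 or more libraries were fitted with edgeR 4.0.16 (glmQLFit and glmQLFTest, robust, TMM) in R 4.3.3, all 12 libraries in 1 fit with 8 residual degrees of freedom, which was checked on simulated data. The contrasts were each arm against its control, the difference of the arms and OEC minus shNC. A gene was called at a Benjamini-Hochberg adjusted p below 0.05, and SE is the log2 fold change divided by the root of the F statistic. The coefficient of variation between libraries of a group, as edgeR estimated it beyond counting noise, came to 24.5%. CPM are scaled to TMM library sizes.

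Alternatives were DESeq2 1.42.0, limma 3.58.1 on log2(FPKM + 1) and log2(FPKM + 0.1), other filters and scaling, the replicate block, each library left out, and 2 libraries left out together. The members and all gene lists were chosen with earlier results of these data known. Named were all members, NR0B1, the called genes of each list with the smallest adjusted p and the 5 genes most like the member of widest range. Settings that combine assembled rows with left-out libraries or limma were chosen after seeing the data. A few genes of the lists are not reported here and were left out of the list counts, after the fit.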

Additional observations from a re-analysis of the deposited data

Results flagged for a closer look

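The response to overexpression and the response to knockdown differed by a test of that difference (edgeR, Benjamini-Hochberg) for 4 clock genes. For PER1 the overexpression response was 3.11 higher on the log2 scale, for CRY1 1.93, for NR1D2 1.36 and for PER2 1.33. The difference for PER1 with the assembled rows was 1.58 and did not pass with all libraries, and was 1.84 and passed (adjusted p = 0.0369, edgeR) without overexpression control replicate 1 and knockdown replicate 2.

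CRY1 had a signal in rows outside the main measurement. The assembled row with its symbol stood at 26.3, 25.6 and 22.3 CPM, here relative to all counts of the library, in the overexpressing libraries (mean 24.7 ± 2.16 SD, n = 3) and at 10.6, 15.6 and 7.95 in the overexpression control (11.4 ± 3.91), which do not overlap. It was at 9.26, 23.5 and 21.8 in the knockdown and at 32.7, 34.9 and 38.2 in its control, again without overlap. The assembled rows of PER1, PER3 and ARNTL were also lower in the knockdown than in its control without overlap. Those of PER2 overlapped there, and in the overexpression arm only CRY1 did not overlap. The difference of the CRY1 row between the groups was not tested on its own.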

How the results depend on the processing

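The number of clock genes called moved by more than 1.5 times in these settings. In the overexpression arm (1 with all libraries) it was 0 with limma on log2(FPKM + 1) or log2(FPKM + 0.1), without a filter and with the replicate block, 2 with the 6 libraries of the arm only, 4 without both libraries that stood apart and 5 without them when assembled rows were added. Beside the counts of 0, 3 of the 10 genes had an unadjusted p under 0.05 in edgeR, and DESeq2 called 1. In the knockdown arm (5) it was 3 with the libraries of the arm only. For the difference of the arms (4) it was 2 without a filter and 7 without both libraries, on either sum. Between the controls (3) it was 5 without both libraries, on either sum. Without both libraries, 37.5% of all genes passed in the overexpression arm, 38.5% for the difference of the arms and 47.5% between the controls. With assembled rows as well, 5616, 5799 and 6735 of 12543 genes passed in that order. With the libraries of the arm only, 2495 of 11908 genes passed in the overexpression arm and 1833 in the knockdown arm. With 1 library left out, on either sum, the counts ranged from 0 to 3 in the overexpression arm, from 2 to 7 in the knockdown arm, from 2 to 6 for the difference of the arms and from 1 to 6 between the controls.

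Directions reversed for values that passed in no setting, except that of PER3 in the knockdown arm, which passed in 4. With assembled rows added, the log2 fold change in the overexpression arm became -0.37 for PER1 (-0.27 with limma, -0.68 without both libraries) and -0.15 for ARNTL, and the PER3 difference between the controls became -0.2 (-0.11 with limma, -0.07 without both libraries). Without both libraries, on Ensembl rows and with assembled rows, CRY2 became -0.31 and -0.30 in the knockdown arm and 0.17 and 0.15 between the controls, and BHLHE40 0.07 and 0.05 between the controls. With 1 library left out, on either sum, the ranges that crossed 0 were -0.68 to 1.54 for PER1, -0.37 to 0.51 for ARNTL and -0.23 to 0.05 for BHLHE40 in the overexpression arm. They were -1.06 to 0.03 for PER3 and -0.31 to 0.21 for CRY2 in the knockdown arm, and -0.43 to 0.23 for PER3, -0.17 to 0.17 for CRY2 and -0.22 to 0.07 for BHLHE40 between the controls. The cause was not tested.

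Whether replicate numbers pair the libraries was not settled. Deviations of same-numbered libraries of different groups correlated at between -0.184 and 0.197, and those of differently numbered ones at between -0.181 and 0.162. With the replicate block the counts of called clock genes were 0, 4, 3 and 4 in the order above. With limma on log2(FPKM + 1), more of the called genes were lower, 1172 higher and 1682 lower in the knockdown arm (1479 and 1372 in edgeR) and 1661 and 2470 between the controls (2051 and 1922).

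With 3 libraries a group, a coefficient of variation of 24.5% between libraries and 8 residual degrees of freedom, a difference such as the 0.44 of NR1D2 in the overexpression arm, which did not overlap, did not pass (adjusted p = 0.097, edgeR). A p above the threshold does not show that levels were equal.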
